A study of Bos taurus with 6 samples.

Results

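The mRNA store of the bovine oocyte at the germinal vesicle stage is described here from the 3 germinal vesicle libraries of a study that holds 6 libraries in all. The libraries are the columns GV14, GV14c and GV15 of the deposited expression table, chosen by their stage alone, and all 20707 rows of the table are described. The composition is given within the stage, as the share of the measured message that the most abundant rows hold, the functions of these rows, and the spread between the libraries. The other 3 libraries, of oocytes matured to metaphase of the second meiotic division, enter no value.

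Per the labels, cumulus-oocyte complexes were aspirated from ovaries taken at an abattoir, and each germinal vesicle sample is an individual Bos taurus oocyte that was collected at aspiration. No genotype, age or treatment is given, and no donor is named. One label calls all samples of the study matured in vitro, whereas the stage label of these samples reads germinal vesicle, and the stage label was used. RNA was made into amplified cDNA by a SMARTer kit, which primes on poly(A) tails, and was read as single reads of 50 bases.

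The 3 columns match the stage of the labels but not fully their titles. The germinal vesicle titles are GV14, GV15 and GV15c, so the column GV14c has no title of its name and the title GV15c has no column. GV14c was used as a germinal vesicle library with no label of its own, and whether it is the sample titled GV15c is not stated. The meaning of 14, 15 and the letter c is not stated, nor is it stated whether GV14 and GV14c are separate oocytes. Every n = 3 below therefore counts libraries, and an SD measures the spread between libraries, which may in part be technical. The library adapters were diluted 1 in 30 for GV14 and 1 in 10 for GV15 and for the title GV15c, and no dilution is given under the name GV14c.

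A germinal vesicle oocyte is arrested in the prophase of the first meiotic division with an intact nucleus. During growth it transcribes and stores a large pool of mRNA, and transcription then falls silent until the embryonic genome is activated. The stored messages serve the meiotic divisions, fertilisation and the first cleavages, and they are controlled by the length of their poly(A) tails, by proteins that mask them, and by their timed decay. A level measured after priming on poly(A) tails therefore depends both on how many copies of a message there are and on how efficiently its tail is primed.

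Levels are in RPKM, which divide the reads of a gene by its model length and by the mapped total of the library. The depth recovered from the steps between low values was 30.01 M reads in GV14, 26.97 M in GV14c and 20.29 M in GV15. At these depths 1 RPKM on a model of 2 kb stands for 60.02, 53.94 and 40.58 reads. RPKM summed over all rows came to 381830 in GV14, 420091 in GV14c and 404569 in GV15, and all shares below are of these sums. A share is relative to its own library, since no spike-in enters the values, and the RNA content of an oocyte was not measured.

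GV14c stood apart from the other pair of libraries. Across the 9012 rows with a mean of at least 1 RPKM, Spearman's rho was 0.947 between GV14 and GV15, 0.920 between GV14 and GV14c and 0.892 between GV14c and GV15. These are correlations across genes, which are not independent replicates. Scaling each library to the median ratio of its rows to their geometric mean would divide GV14, GV14c and GV15 by 1.01, 1.10 and 0.93, so counts of rows in which GV14c was highest or GV15 lowest hold a general shift as well. Values are given for each library below so that GV14c can be set aside, and mean shares without it are in the closing section.

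The label of the cells was checked on markers. All 15 oocyte marker rows stood at 1 RPKM or more in every library, and their summed level was 7607 RPKM in GV14, 10708 in GV14c and 7853 in GV15. The 19 rows of cumulus and granulosa markers, the cells that surround the oocyte, summed to 184, 167 and 120 RPKM in the same order, and 8 of them stood at 1 RPKM or more in all 3 libraries. Most of that sum was STAR, a cholesterol carrier of steroid-making cells, at 135.6, 100.7 and 67.1 RPKM. HAS2, the hyaluronan synthase of the expanding cumulus, lay at 18.3, 18.9 and 11.6 RPKM. KITLG, another marker of this list, lay at 6.93, 14.1 and 7.48 RPKM. The 9 rows of the list with a mean of at least 1 RPKM had a median of 7.03 RPKM. The granulosa genes AMHR2, HSD17B1 and PTX3 were listed at 0 in all 3 libraries, FSHR was listed at 0 in GV14 and GV15 and at 0.014 in GV14c, and CYP19A1, the aromatase, lay between 0.213 and 0.395 RPKM. Whether STAR, HAS2 and KITLG message came from the oocyte or from cumulus cells was not tested.

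Markers of other ovarian cells were lower still. The 16 rows of theca and stroma markers summed to 15.4, 28.3 and 33.3 RPKM in GV14, GV14c and GV15, and 8 of them were listed at 0 throughout, COL3A1 and CYP17A1 included. KDR, a receptor of endothelial cells, stood at 9.67, 16.5 and 24.95 RPKM and ACTA2, the actin of smooth muscle, at 3.67, 8.17 and 7.36 RPKM, and these 2 rows alone passed 1 RPKM in all 3 libraries. The 24 rows of blood and immune markers summed to 8.98, 21.0 and 30.1 RPKM, with 14 listed at 0 throughout, PTPRC and every HBB row among them. In that list CD3E alone passed 1 RPKM in all 3 libraries, at 6.499, 18.6 and 28.6 RPKM. With amplified RNA of this kind, a few attached cells and a low level in the oocyte itself cannot be told apart.

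The store was concentrated in few rows. The 10 rows of highest mean RPKM, 0.0483% of all rows, held 14.8% of summed RPKM in GV14, 13.5% in GV14c and 17.5% in GV15 (mean 15.3% ± 2.02, SD, n = 3). The first 100 rows held 34.9%, 34.0% and 38.7% (35.9% ± 2.48, SD, n = 3), and the first 1000 rows held 72.4%, 72.8% and 76.0% (73.7% ± 2.01, SD, n = 3). GV15, the library of lowest depth, was the most concentrated at all 3 ranks, and GV14 and GV14c lay close together.

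**Figure D1:**
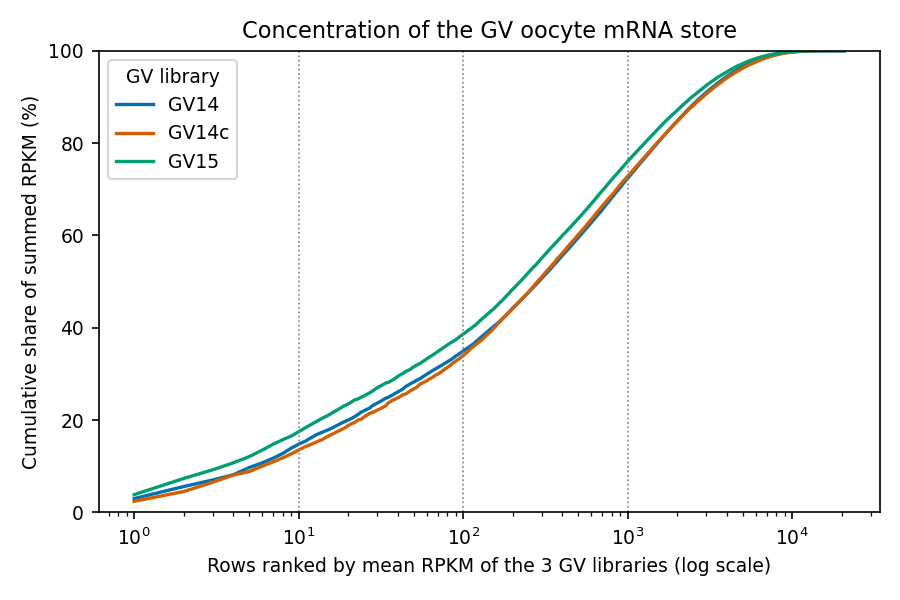
Cumulative share of summed RPKM (%, vertical axis) held by rows ranked by mean RPKM (log axis), with a line for each germinal vesicle library. The lines of GV14 and GV14c run close together and that of GV15 lies above them, at 17.5% for the first 10 rows and 38.7% for the first 100.

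Counted the other way, 50% of summed RPKM was reached with 284 rows in GV14, 274 in GV14c and 217 in GV15 when each library was ranked on its own. The 90% mark took 2765, 2782 and 2399 rows. GV14 and GV14c needed similar numbers and GV15 fewer.

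The libraries named much the same leading rows. Of each library's own first 10 rows, 9 were shared by all 3 libraries, and so were 73 of the first 100 and 813 of the first 1000. GV14 and GV15 shared 86 of 100 and 906 of 1000, GV14 and GV14c shared 80 and 860, and GV14c and GV15 shared 75 and 855. The pairs that include GV14c shared fewer rows at both ranks.

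The most abundant rows had short coding sequences. The median coding length was 619.5 nt over the first 10 rows, 636 nt over the first 100 and 771 nt over the first 1000, against 1173 nt over all rows. It was 792 nt for the rows that follow the first 100 up to rank 1000, 1152 nt from there to rank 2000 and 1365 nt from there to rank 9000. RPKM divides by model length, so a share of RPKM and a share of reads differ by this property. When RPKM was turned back into reads over the coding length, rows were ranked anew by these reads. The 10, 100 and 1000 highest rows of that ranking held 10.8%, 30.1% and 67.1%. Reads so counted made up 41.6% of the mapped total in GV14, 42.2% in GV14c and 41.2% in GV15.

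Rows that share a symbol with another row made up 35 of the first 100, against 25.1% of all rows and 15.8% of rows at 1 RPKM or more. Rows with 1 coding exon were 13 of the first 100, against 5.60% of rows at 1 RPKM or more. Reads of 50 bases can be shared between near-identical copies, and how the authors placed such reads is not given in the sources used here. Levels of families such as the ubiquitins, ribosomal proteins, tubulins and MAGE genes are therefore uncertain between copies.

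Ubiquitin and the control of mRNA decay led the ranking. UBB, which encodes a chain of ubiquitin units, the tag that marks proteins for the proteasome, stood at 11425 RPKM in GV14, 10085 in GV14c and 15560.2 in GV15. It was the highest row of the table in the mean over the libraries and lies on chromosome 19 from 33853928 to 33854845 in 1 coding exon.

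BTG4, an adaptor that brings the CCR4-NOT deadenylase to maternal mRNA, was at rank 2 with 9992 RPKM in GV14, 8938 in GV14c and 14209 in GV15. Its model has 4 coding exons on chromosome 15, from 22105614 to 22120338. UBB and BTG4 were both highest in GV15 and lowest in GV14c. PAIP1, a partner of the poly(A)-binding protein in translation, closed the first 10 rows at 3213, 3597 and 3801 RPKM, a spread of 8.45% of its mean.

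Short cytoskeletal proteins followed. The row annotated as TYB4_BOVIN, thymosin beta 4, which binds actin monomers, stood at 5423 RPKM in GV14, 8415 in GV14c and 7581 in GV15. DYL1_BOVIN, a dynein light chain, showed the same order at 4324, 6547 and 6106 RPKM. Neither row carries a symbol in the table, and both are named here by the authors' annotation. For both rows GV14 was the lowest library and GV14c the highest.

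HMGN2, a nucleosome-binding protein, stood at 5942, 3167 and 5446 RPKM, so GV14c lay well below the other pair. PTTG1, securin, which holds back separase until anaphase, stood at 3892, 4929 and 5655 RPKM, and 3 rows of the table carry its symbol. GSTM3, a glutathione transferase, stood at 3895, 3954 and 5264 RPKM. Of these 3 genes HMGN2 was lowest in GV14c, and PTTG1 and GSTM3 were lowest in GV14.

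The row at rank 8 carries the symbol MAGEB4, a MAGE family name, and stood at 3862, 3608 and 3932 RPKM, a spread of 4.48% of its mean. The symbol is carried by 15 rows and the authors' annotation gives this row no name, so its identity is uncertain. Rank 10, PAIP1 at a mean of 3537 RPKM, and rank 11, CKS1B at 3089.5 RPKM, mark the edge of the first 10 rows.

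**Figure D2:**
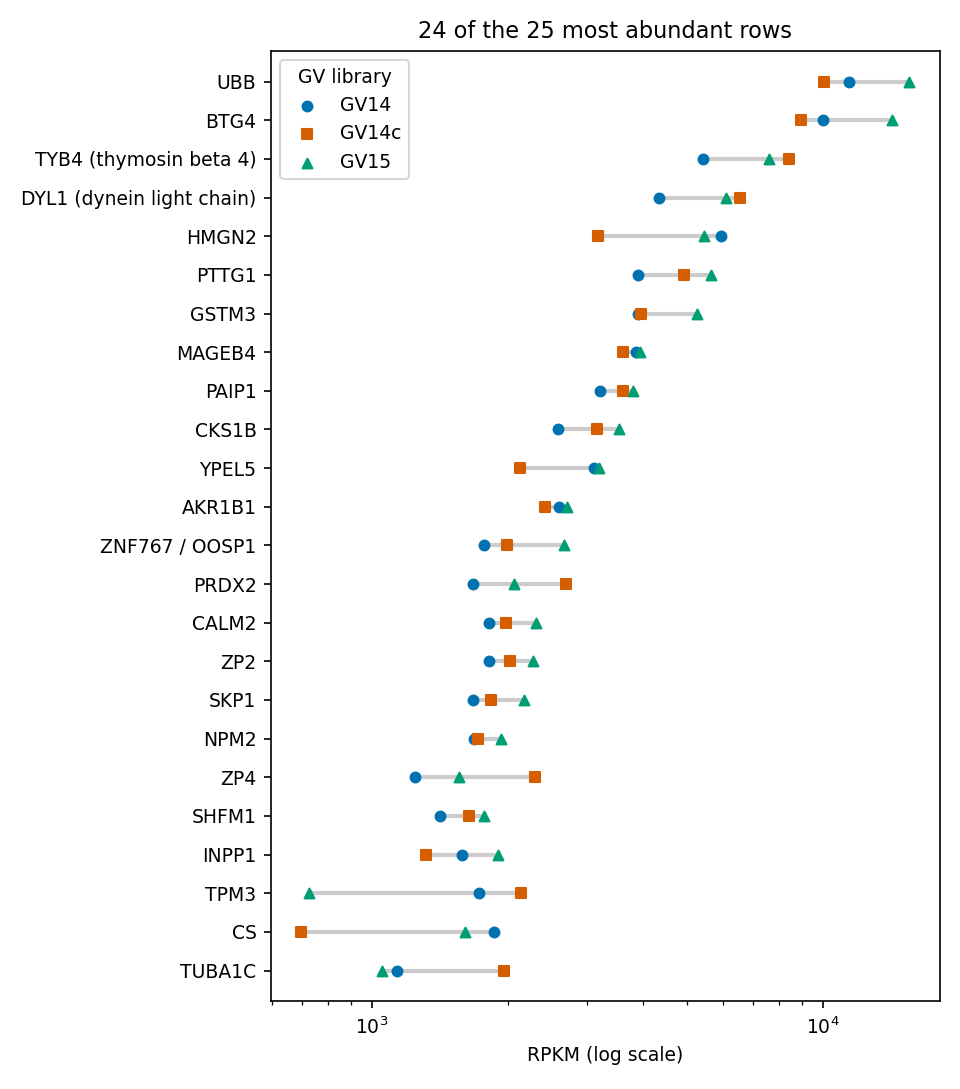
RPKM (log axis) of 24 of the 25 rows of highest mean, 1 row per line, with a point for each of the 3 germinal vesicle libraries. UBB and BTG4 lie above the rest in every library, and TPM3 and CS show the widest gaps between libraries, TPM3 between 724 and 2139 RPKM and CS between 698 and 1869 RPKM.

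Ranks 11 to 25 held cell cycle, redox, egg coat and nuclear proteins. CKS1B, a small subunit that binds cyclin-dependent kinases, stood at 2591, 3152 and 3526 RPKM in GV14, GV14c and GV15. SKP1, a core subunit of SCF ubiquitin ligases, stood at 1674, 1841 and 2175 RPKM. NPM2, the oocyte nucleoplasmin that remodels sperm chromatin after fertilisation, stood at 1684, 1723 and 1929.5 RPKM. All 3 were lowest in GV14 and highest in GV15, and the SD was 7.42% to 15.2% of the mean.

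AKR1B1, an aldose reductase, stood at 2606, 2424 and 2711 RPKM, and PRDX2, a peroxiredoxin that removes hydrogen peroxide, at 1673, 2691 and 2069 RPKM. CALM2, a calmodulin, stood at 1816, 1984 and 2312 RPKM. YPEL5 stood at 3116, 2134 and 3186 RPKM. AKR1B1 and CALM2 varied little between libraries, PRDX2 was highest in GV14c, and YPEL5 lowest there.

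CS, citrate synthase, the entry enzyme of the citric acid cycle, stood at 1869 RPKM in GV14, 698 in GV14c and 1612 in GV15. TPM3, a tropomyosin, stood at 1726, 2139 and 724 RPKM. This row is 1 of 3 that carry the symbol, has 1 coding exon and has no name in the annotation. CS was thus low in GV14c alone and TPM3 low in GV15 alone.

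The row at rank 14 shows a conflict of names. The table gives it the symbol ZNF767, a zinc finger name, whereas the authors' annotation calls it OOSP1_BOVIN, oocyte-secreted protein 1. It stood at 1770 RPKM in GV14, 1997 in GV14c and 2668 in GV15. Counted by its annotation name, it moved the mean share of the zona and oocyte-secreted list to 2.06% and that of the ZNF, ZBTB and ZSCAN list to 1.08%, a placement chosen after its values were seen.

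By function, the first 100 rows were led by protein turnover and by translation. These classes were assigned row by row after the values were seen, from the symbol or annotation name, and they describe the ranking only. The class of protein turnover and ubiquitin-like proteins held 10 rows and 6.52% ± 0.91 of summed RPKM (SD, n = 3). Translation and mRNA control held 16 rows and 5.89% ± 0.64, and the cytoskeleton 7 rows and 4.50% ± 0.49. Redox and metabolism followed with 10 rows and 3.73% ± 0.36, chromatin and transcription with 9 rows and 3.13% ± 0.56, and cell cycle and spindle with 7 rows and 3.05% ± 0.34.

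Signalling, traffic and chaperones held 11 of the 100 rows and 2.42% ± 0.22, zona, secreted and oocyte proteins 7 rows and 2.17% ± 0.28, and mitochondrial proteins 9 rows and 1.38% ± 0.09. The other 14 rows, with 3.05% ± 0.07, were not classed. Neighbouring classes in this order overlapped in mean ± SD except between translation and the cytoskeleton, between cell cycle and signalling, and between zona and mitochondrial proteins. That overlap does not compare classes within a library. Within each library neighbouring classes kept this order, with exceptions in GV14c alone. There cell cycle exceeded chromatin (3.01% against 2.49%) and zona exceeded signalling (2.46% against 2.18%). The edge of the 100 rows falls between USMG5_BOVIN, a mitochondrial protein, at 469.7 RPKM and OOEP at 466 RPKM, a protein of the subcortical maternal complex.

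The whole table was also described by 28 function lists matched on symbols, which covered 3718 rows and held 38.4% of summed RPKM. They held 46 of the first 100 rows and 332 of the first 1000. No row matched the list for transcripts of the mitochondrial genome, so 27 lists have values. Lists may share rows, and a list of symbols counts every row that carries a symbol.

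**Figure D3:**
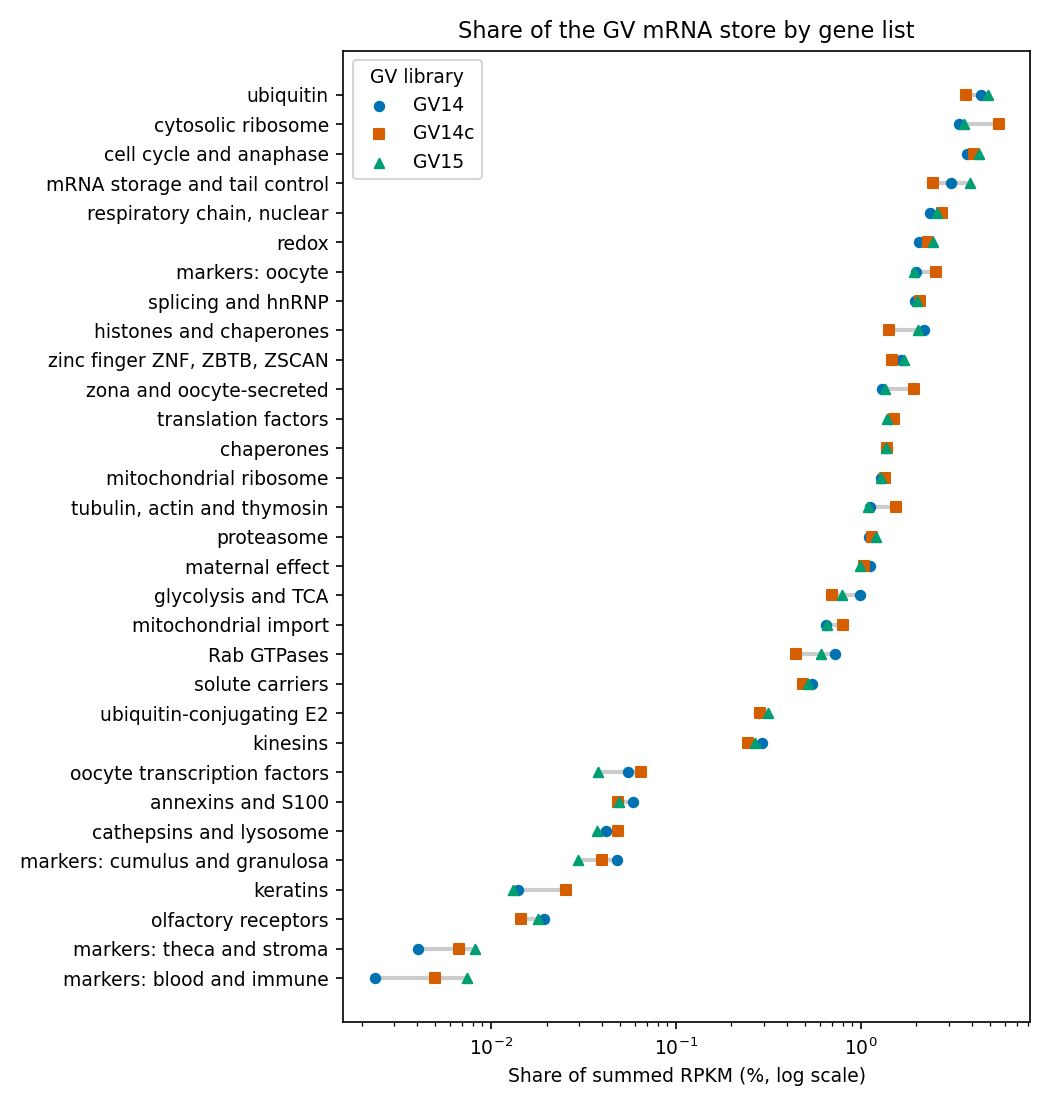
Share of summed RPKM (%, log axis) held by each function list and each marker list, with a point for each of the 3 germinal vesicle libraries. In percentage points the cytosolic ribosome differs most, with GV14c at 5.57% against 3.42% and 3.63%. As a ratio of highest to lowest library, the blood and immune markers differ most, at 3.16 against 1.63 for the cytosolic ribosome. The chaperone points nearly coincide.

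Ribosomal protein genes took one of the largest shares of summed RPKM and differed between libraries. Counted as reads on the coding length their mean share was 2.20% in place of 4.20%, below the 3.73% of ubiquitin and the 2.997% of cell cycle genes counted the same way. Rows with symbols of cytosolic ribosomal proteins held 3.42% in GV14, 5.57% in GV14c and 3.63% in GV15, with 131 of 283 rows at 1 RPKM or more. GV14c was the highest library in 102 of the 131 rows, or 77.9%, against 48.9% of all rows at 1 RPKM or more. GV14 was the lowest in 69.5% of them, against 27.5% of all rows. After scaling to the median ratio these shares were 68.7% against 38.6% of all rows for GV14c highest and 73.3% against 28.2% for GV14 lowest. The median spread of these rows was an SD of 0.51 on the log2(RPKM + 1) scale, against 0.33 over all rows.

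Among its members, RPSA, a protein of the small subunit, stood at 422 RPKM in GV14, 1176 in GV14c and 570.4 in GV15. RPS27A, which is made as a fusion with ubiquitin, stood at 574, 989 and 709 RPKM. FAU, which encodes the small-subunit protein eS30 in a fusion with a ubiquitin-like protein, was level at 1177, 1062 and 1013 RPKM, and RPL35A of the large subunit at 523, 601 and 627 RPKM. RPSA and RPS27A were highest in GV14c, FAU highest in GV14 and RPL35A highest in GV15, so the members did not all follow the summed share.

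Translation factors held 1.44%, 1.51% and 1.39% in GV14, GV14c and GV15, nearly level, though single members were not. EEF1A1, the elongation factor that brings tRNA to the ribosome, stood at 462, 1096 and 554 RPKM. EIF4E, the cap-binding protein, ran the other way at 891, 418 and 779 RPKM. EIF3E, a subunit of the initiation factor that binds the small ribosomal subunit, was level at 494, 525 and 619.6 RPKM. In GV14c EEF1A1 was thus high and EIF4E low.

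The list of mRNA storage and tail control held 3.09%, 2.47% and 3.88%, most of it BTG4. BTG4 gave 9992, 8938 and 14209 of the list's 11815, 10394 and 15688 RPKM in GV14, GV14c and GV15. Of 62 rows 48 stood at 1 RPKM or more, but BTG4 was the only 1 among the first 100. CNOT2, a subunit of the CCR4-NOT complex, stood at 132, 78.5 and 121 RPKM in GV14, GV14c and GV15, and ZFP36L1, which binds AU-rich elements, at 122.97, 87.1 and 86.1 RPKM. DAZL, a germ cell translational regulator that is also an oocyte marker here, stood at 154, 39.9 and 57.8 RPKM. GV14 was the highest library for CNOT2, ZFP36L1 and DAZL.

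Protein turnover reached beyond the ubiquitin genes. The ubiquitin list held 4.45%, 3.72% and 4.90% of summed RPKM in GV14, GV14c and GV15, most of it UBB. Subunits of the proteasome held 1.11%, 1.15% and 1.21%, with 45 of 53 rows at 1 RPKM or more, none among the first 100 and 15 among the first 1000. Ubiquitin-conjugating enzymes held 0.28%, 0.29% and 0.32%. Proteasome subunits and E2 enzymes were thus widely present at moderate levels and nearly level between libraries.

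Of the proteasome, PSMA5, a subunit of the core ring, stood at 374, 385 and 401 RPKM, and PSMA3 of the same ring at 384, 377 and 531 RPKM. UBE2L3, a conjugating enzyme, stood at 226, 243 and 270.1 RPKM. UCHL1, a ubiquitin hydrolase abundant in oocytes and neurons, stood at 212, 474 and 73.9 RPKM and was among the 20 most variable rows. PSMA5 varied by 3.56% of its mean, whereas UCHL1 varied by 80.2%.

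Cell cycle and anaphase genes held 3.74%, 4.09% and 4.37% of summed RPKM, with 63 of 82 rows at 1 RPKM or more, 6 among the first 100 and 28 among the first 1000. Beside PTTG1 and CKS1B, AURKA, the kinase of spindle poles, stood at 1126 RPKM in GV14, 1737 in GV14c and 1207 in GV15. CKS2 stood at 982, 981 and 1336 RPKM. CDC25C, a phosphatase that activates the cyclin B kinase, stood at 159, 164 and 161 RPKM. It was among the 10 least variable rows in unscaled RPKM. AURKA was highest in GV14c and CKS2 in GV15.

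Kinesins, the motors that move along microtubules, held 0.29%, 0.24% and 0.27%. KIF20B, which acts in cell division, stood at 353, 263 and 393 RPKM, KIF18A, which shapes chromosome alignment, at 106, 151 and 122.7 RPKM, and KIF23, of the midbody, at 146, 111 and 126 RPKM. KIF20B and KIF23 were lowest in GV14c and KIF18A was highest there.

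Egg coat and oocyte-secreted genes stood out for abundance among oocyte products. Their list held 1.30% in GV14, 1.94% in GV14c and 1.35% in GV15, with 8 of 9 rows at 1 RPKM or more and 5 among the first 100. ZP2 and ZP4, structural proteins of the zona pellucida, stood at 1814, 2022 and 2272 RPKM and at 1249, 2298 and 1557 RPKM. ZP3, the third of these coat proteins in the list, stood at 644, 2274 and 248 RPKM. ZP2 varied by 11.3% of its mean and ZP3 by 102%, although both belong to one coat.

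The growth factors BMP15 and GDF9, which the oocyte sends to its cumulus cells, varied little. BMP15 stood at 764, 869 and 743 RPKM in GV14, GV14c and GV15, and GDF9 at 464, 603 and 586 RPKM. Both lay among the first 100 rows.

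Maternal effect genes, whose products the early embryo needs, held 1.13%, 1.05% and 0.994%. Of 34 rows 27 stood at 1 RPKM or more, and GV15 was the lowest library in 22 of these, or 81.5%, against 44.7% of all rows, and in 15, or 55.6%, against 33.9% after scaling to the median ratio. NPM2, the leading row of the list, was instead highest in GV15. It gave 1684, 1723 and 1929.5 of the list's 4303, 4400 and 4020 RPKM in GV14, GV14c and GV15. NLRP7 stood at 588, 280.3 and 562 RPKM, OOEP at 534, 610.2 and 253 RPKM, and BCAR4 at 276, 494 and 349 RPKM. NLRP5, a member of the subcortical maternal complex, stood at 49.2 and 47.5 RPKM in GV14 and GV14c and at 19.8 in GV15, and ZAR1 at 74.5, 56.8 and 67.7 RPKM. OOEP and NLRP5 were low in GV15, and NLRP7 was low in GV14c.

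Transcription factors of the oocyte were a small part of the store. Their list held 0.06%, 0.07% and 0.04%, with 12 of 21 rows at 1 RPKM or more and none among the first 1000. The highest row of the list, at a mean of 45.5 RPKM, is not a transcription factor. These shares are therefore not of transcription factors alone. TBPL2, the TBP paralogue of oocytes, stood at 42.3, 32.7 and 38.9 RPKM, LHX8 at 30.2, 34.8 and 31.7 RPKM, and FIGLA, which drives zona genes, at 35.5, 23.7 and 27.9 RPKM. NOBOX, a homeobox factor of follicle growth, stood at 3.15, 4.90 and 1.67 RPKM. All 4 lay more than an order of magnitude under ZP2.

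Chromatin proteins held more. The list of histones, their chaperones and HMG proteins held 2.20%, 1.41% and 2.05%, lowest in GV14c. Its leading row was HMGN2, the nucleosome-binding protein named above. HMGN2 gave 5942, 3167 and 5446 of the list's 8398, 5944 and 8297 RPKM in GV14, GV14c and GV15. GV14c was the lowest library in 11 of 62 rows at 1 RPKM or more, or 17.7%, against 27.8% of all rows. It was the highest in 34, or 54.8%, against 48.9%, so the low summed share did not hold for most rows. NPM1, nucleophosmin of the nucleolus, stood at 1103 RPKM in GV14, 1089 in GV14c and 1601 in GV15. H1FOO, the oocyte linker histone, stood at 73.2, 84.7 and 28.7 RPKM. HMGB1, an abundant chromatin protein, stood at 258, 231 and 230.2 RPKM. The row annotated as H33_BOVIN, a histone, has no symbol and is not counted in the list. It stood at 1033, 1061 and 1177 RPKM. NPM1 was high and H1FOO low in GV15.

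The nuclear-encoded respiratory chain held 2.38%, 2.75% and 2.57%, with 81 of 105 rows at 1 RPKM or more and 43 among the first 1000. COX6A1, a subunit of cytochrome oxidase, stood at 834, 901 and 1002 RPKM. ATP5H and ATP5J, of the ATP synthase, stood at 434, 438 and 558 RPKM and at 407, 494 and 511 RPKM. Mitochondrial ribosomal proteins held 1.29%, 1.36% and 1.28%, led by MRPS16 at 901, 1211 and 1132 RPKM, and mitochondrial import 0.65%, 0.80% and 0.66%. Each of these mitochondrial shares was highest in GV14c.

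Glycolysis and the citric acid cycle held 1.00%, 0.70% and 0.79%, with CS as the leading row. LDHA, a lactate dehydrogenase subunit, stood at 691, 434 and 341 RPKM, LDHB at 228, 281 and 256 RPKM, and GAPDH at 258, 499 and 299.5 RPKM. LDHA was highest in GV14 and GAPDH highest in GV14c, so the summed share did not describe each enzyme. The redox list held 2.07%, 2.30% and 2.48%, with PRDX1 at 446, 604 and 527 RPKM and SOD1, a superoxide dismutase, at 294, 478 and 329.6 RPKM.

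Tubulins, actins and thymosins held 1.12%, 1.54% and 1.09%, and GV14c was the highest library in 33 of 40 rows at 1 RPKM or more, or 82.5%, against 48.9% of all rows. After scaling to the median ratio it was highest in 27 of them, or 67.5%, against 38.6%. TUBA1C, an alpha tubulin, stood at 1138, 1963 and 1051 RPKM in its most abundant row and at 289, 696 and 327 RPKM in another row of the same symbol. The TYB4_BOVIN row has no symbol and is not counted in the list. Chaperones were the most even list in level, at 1.39%, 1.40% and 1.37%. HSPA8, the constitutive heat shock protein of the cytosol, stood at 689, 759 and 737 RPKM.

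Splicing and hnRNP genes held 1.96%, 2.09% and 2.01%, with 108 of 154 rows at 1 RPKM or more, none among the first 100 and 29 among the first 1000. SNRPG and SNRPF, of the ring that binds spliceosomal RNA, stood at 383, 515 and 493 RPKM and at 364, 592 and 431 RPKM. Rab GTPases, which direct vesicle traffic, held 0.73%, 0.45% and 0.61%, with RAB21, described below, as the leading row. RAB21 gave 1373, 98.4 and 1120.3 of the list's 2783, 1888 and 2474 RPKM. In unscaled RPKM GV14c was the highest library in 29 of 42 Rab rows at 1 RPKM or more, or 69.0%, against 48.9% of all rows. It was the lowest in 11.9%, against 27.8%, so its low summed share did not hold for most rows. Solute carriers held 0.54%, 0.49% and 0.52% over 142 of 421 rows at 1 RPKM or more.

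Olfactory receptors and keratins were mostly below 1 RPKM. Of 1052 olfactory receptor rows, 905 were listed at 0 in all 3 libraries and 16 stood at 1 RPKM or more. The highest of these carries the symbol OR5M9, as do 8 other rows, and stood at 16.4 RPKM in GV14, 8.87 in GV14c and 19.6 in GV15. Keratins had 9 of 57 rows at 1 RPKM or more, or 15.8%. Annexins and S100 proteins had 15 of 31, or 48.4%, and cathepsins and lysosomal proteins 12 of 25, or 48.0%, against 43.5% of all rows. CTSB, cathepsin B, led the last list at 48.8, 104 and 48.4 RPKM.

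Over the whole table, 7760 rows stood at 1 RPKM or more in all 3 libraries, 1048 in 2 of them, 1160 in 1 and 10739 in none. Of the rows detected in any library, 77.8% were thus detected in all. At 100 RPKM the libraries held 711, 766 and 726 rows, with 587 in common, and at 1000 RPKM 34, 38 and 40 rows, with 29 in common. Rows listed at 0 in all 3 libraries numbered 5178 and 12225 rows were above 0 in all 3.

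The libraries differed from each other by more than counting. Over the 9012 rows with a mean of at least 1 RPKM, the median SD of log2(RPKM + 1) between the 3 libraries was 0.33, with 10% of rows under 0.12 and 10% over 0.78. The SD that counting alone would give at the recovered depth had a median of 0.07. That value is an upper limit, because models longer than their coding part hold more reads than it assumes. The observed SD exceeded it in 95.7% of 8797 rows with a coding length. Reads copied by amplification carry no molecular identifier here, so the limit covers counting error and nothing else.

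Spread fell with abundance and then levelled off. The median SD was 0.39 for the 3502 rows between 1 and 5 RPKM, 0.33 for 2809 rows between 5 and 20 RPKM, and 0.27 for 1958 rows between 20 and 100 RPKM. It was 0.26 for 656 rows between 100 and 500 RPKM and 0.25 for the 87 rows at 500 RPKM or more. The spread of rows from 1 to 5 RPKM was 1.53 times that of rows at 100 RPKM or more. After scaling to the median ratio it was 1.27 times. The pseudocount of 1 RPKM narrows log2 differences most in the low rows, so this ratio understates the fall. As a percentage of the row mean, the median SD was 38.9% between 1 and 5 RPKM. It was 17.5% between 100 and 500 RPKM and 17.7% at 500 RPKM or more. The counting limit fell over the same bins from 0.11 to 0.01, so above 20 RPKM the spread stayed level while the counting limit kept falling. An SD of 1 or more was reached by 398 rows, or 4.42%.

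**Figure D4:**
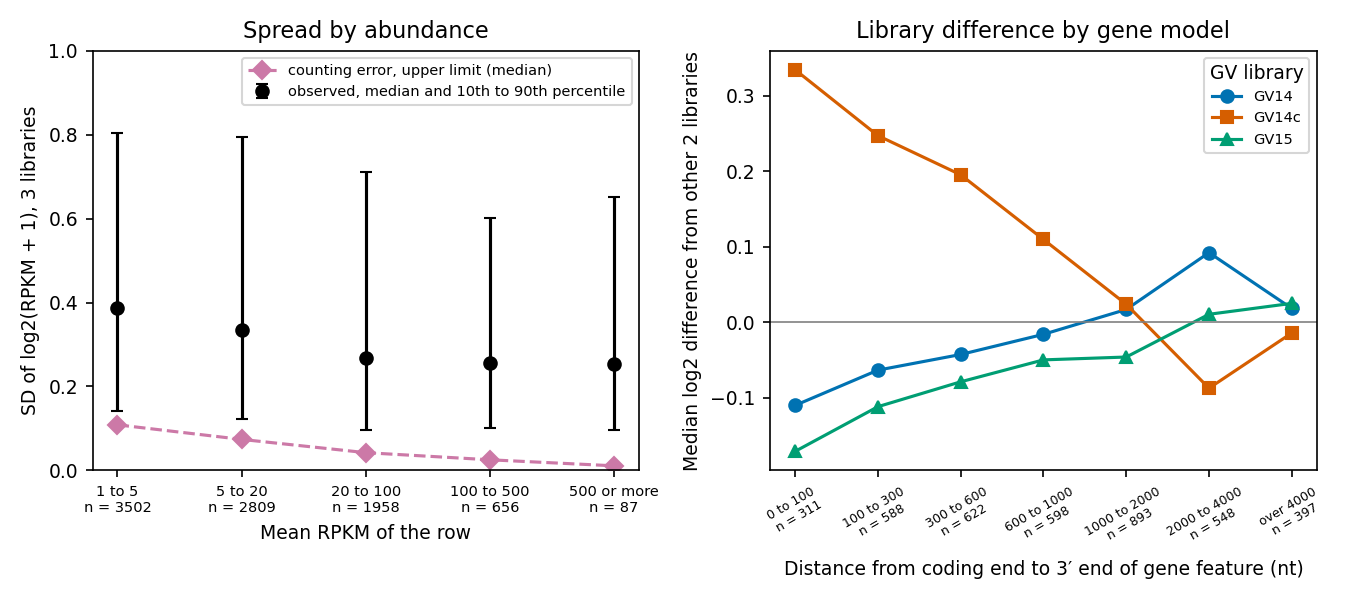
Left, SD of log2(RPKM + 1) between the 3 germinal vesicle libraries by bin of mean RPKM (median over rows, bars from the 10th to the 90th percentile, and the median limit from counting), falling from 0.39 to 0.25 and above the limit in every bin. Right, median log2 difference of each library from the other pair by the distance (nt) from the coding end to the end of the model, with GV14c falling from 0.33 at the shortest distances to -0.09 at 2000 to 4000 nt and lying at -0.01 above 4000 nt.

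Which library was high changed with abundance. Between 1 and 5 RPKM GV14c was the highest library in 51.8% of rows and GV15 the lowest in 52.0%. At 500 RPKM or more GV15 was the highest in 50.6% and GV14 the lowest in 52.9%. After scaling to the median ratio GV14c was highest in 44.7% and GV15 lowest in 43.6% of the first bin. In the last bin GV15 was then highest in 66.7%, and GV14c took the place of GV14 as the most frequent lowest library, with 47.1% against 46.0%. Without GV14c the median SD over all rows at 1 RPKM or more was 0.22, without GV15 0.28 and without GV14 0.33. Setting GV14c aside thus gave the closest pair.

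The rows of widest spread were taken among the 1398 rows with a mean of at least 50 RPKM. RAB21, a GTPase of early endosomes, had the largest SD, 2.11 on the log2(RPKM + 1) scale, at 1373 RPKM in GV14, 98.4 in GV14c and 1120.3 in GV15. The row has 1 coding exon on the X chromosome. PCNP, a nuclear protein, stood at 180.4, 22.6 and 144 RPKM, and GCLC, the catalytic subunit of glutathione synthesis, at 142, 24.6 and 104 RPKM. RAB21, PCNP and GCLC were the 3 of the 20 widest rows that were highest in GV14 and lowest in GV14c.

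The most common order among the 20 widest rows was the reverse for GV14c. In 16 of them GV14c was the highest library and GV15 the lowest, an order held by 19.0% of all 1398 rows, and scaling to the median ratio left 15 of them in it. SPDYC, a Speedy family activator of cyclin-dependent kinases, stood at 56.3 RPKM in GV14, 180.2 in GV14c and 10.5 in GV15. COPE, a subunit of the COPI vesicle coat, stood at 29.3, 115 and 6.68 RPKM, and RPS10, a ribosomal protein, at 64.2, 186 and 13.6 RPKM. In each of these rows GV15 lay more than an order of magnitude below GV14c.

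OAZ1, the antizyme that limits polyamine synthesis, stood at 122, 435 and 44.7 RPKM, and WBSCR22, a methyltransferase of ribosomal RNA, at 183, 426 and 48.2 RPKM. POLR2E, a subunit of the RNA polymerases, stood at 41.7, 104 and 8.03 RPKM, and RPL8, a ribosomal protein, at 102, 309 and 36.7 RPKM. CDK5, a cyclin-dependent kinase, departed in part from this order, with GV14 and GV14c close together at 271 and 276 RPKM, an order that the scaling to the median ratio turns round, and GV15 at 48.0 RPKM. NUBP1, an assembly factor of iron-sulfur clusters, was the 1 row highest in GV14 and lowest in GV15, at 159, 98.1 and 27.1 RPKM.

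**Figure D5:**
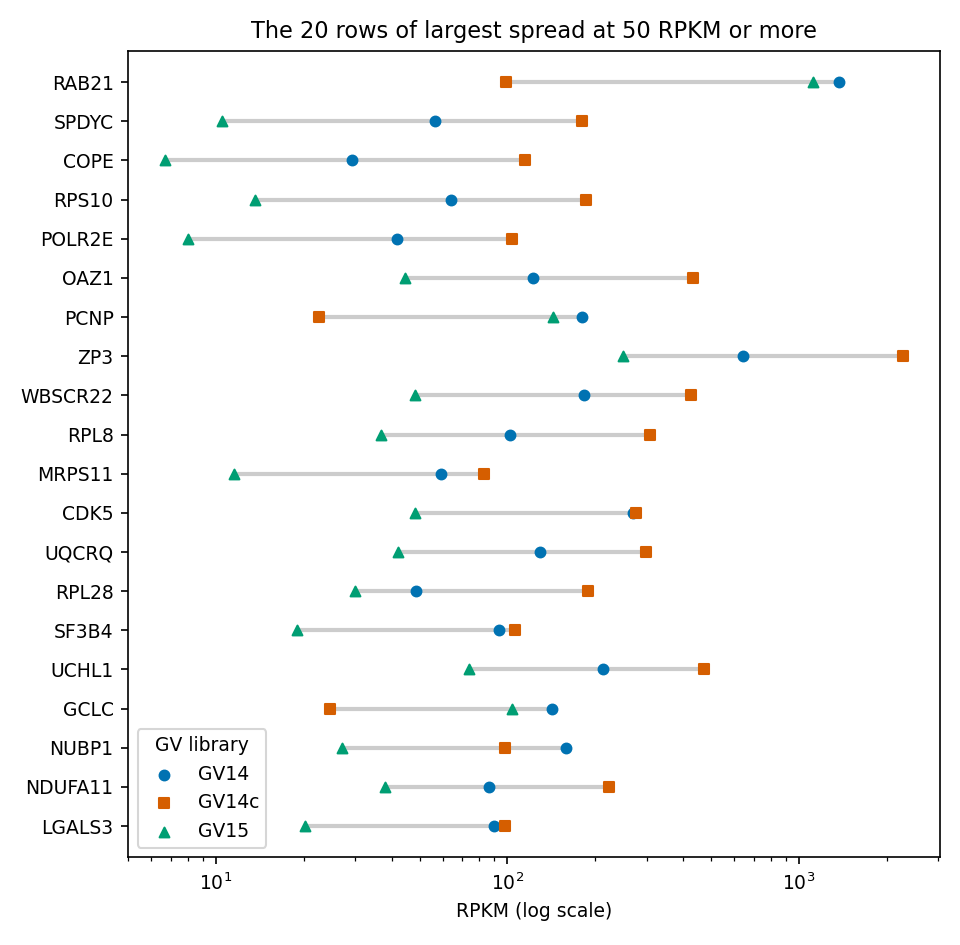
RPKM (log axis) of the 20 rows of largest SD between libraries among rows with a mean of at least 50 RPKM, with a point for each germinal vesicle library. In 16 of the 20 rows, or 15 after scaling to the median ratio, GV14c is the highest point and GV15 the lowest, and in RAB21, PCNP and GCLC GV14c is the lowest.

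The same orders led the 100 widest rows. Of these, 51 were highest in GV14c and lowest in GV15, 25 were highest in GV14 and lowest in GV14c, and 16 were highest in GV14c and lowest in GV14. Over all 1398 rows these orders held 19.0%, 13.7% and 26.5%. The other 8 rows held the remaining orders. After scaling to the median ratio the first order held 45 rows, the second 23 and the third 20. Rows of the first order had a median of 371 nt between the end of the coding sequence and the end of the model, against 1910.0 nt for rows of the second. Their median coding lengths were 693 and 1077 nt.

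Gene model structure moved with the deviation of GV14c over all 4036 rows with a mean of at least 10 RPKM, where its median log2 difference from the mean of the other pair was 0.09. This difference was 0.33 where the coding sequence ended within 100 nt of the end of the model. It was 0.25 at 100 to 300 nt, 0.11 at 600 to 1000 nt, -0.09 at 2000 to 4000 nt and -0.01 above 4000 nt. By coding length it ran from 0.29 at up to 300 nt to -0.11 above 2500 nt. GV14 ran against it, from -0.24 to 0.18 over the same lengths. The part of model length, tail length or base composition in these differences was not tested.

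At the other end, some abundant messages were nearly constant in unscaled RPKM. They are the 10 rows of smallest SD among the 1398 rows with a mean of at least 50 RPKM. Scaling to the median ratio would divide GV14, GV14c and GV15 by 1.01, 1.10 and 0.93, so levels equal here would differ after it. DGUOK, the mitochondrial deoxyguanosine kinase, stood at 115.0 RPKM in GV14, 114.7 in GV14c and 115.5 in GV15. Its SD was 0.005, below the median counting limit of 0.029 for rows at 50 RPKM or more. OPTN, an autophagy receptor, stood at 74.4, 73.7 and 74.4 RPKM, and ITGB1, an integrin chain, at 49.65, 50.3 and 50.6 RPKM. MYL12B, a myosin light chain, stood at 285, 279 and 279 RPKM. The others of the 10 least variable rows were DYNC2LI1, RBM48, CDC25C, DIMT1, WDR76 and LTV1, and the ratio of their highest to their lowest library was at most 1.04.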

How the data were processed

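The authors deposited, per the file headers, RPKM for 20707 Ensembl genes in 6 libraries, and a second file of gene, transcript and coding coordinates extended by their reads. Per the submitters' processing notes DESeq was used. Its role is not given in the sources used here, nor are the aligner, the counter and the build. Coordinates are from that annotation, counted from 1.

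Shares are RPKM over summed RPKM of a library. Rows were ranked by mean RPKM. Spread is the SD of log2(RPKM + 1), with a pseudocount of 1, over rows with a mean of at least 1 RPKM. Depth was recovered as the value that made RPKM below 15 reads whole for models of coding sequence alone, and 92.6% to 94.6% of 393 to 462 low values per library lay within 0.1 of a whole read. The recovery and the spread were tested on simulated data. With 1 group, no test between groups was run. Python 3.11.15, pandas 2.3.3 and numpy 2.4.6 were used.

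The members, lists and naming rule were chosen with earlier results of these data known. The rule named the 25 highest rows, the 4 highest of each list, the 20 most and 10 least variable rows at 50 RPKM or more, markers with at least 1 RPKM in a library, and the rows at the edges of the ranks. Of the genes so named, 2 are not reported here. Other genes named were chosen after their values were seen. Alternatives were a count of reads on the coding length, other pseudocounts, filters and thresholds, 1 row per symbol, other scalings, and each library left out.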

Additional observations from a re-analysis of the deposited data

How the results depend on the processing

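Counted as reads on the coding length and ranked anew by these reads, the 10, 100 and 1000 highest rows held 10.8%, 30.1% and 67.1%. These shares were below the RPKM shares by more than 1 SD. The same count moved 22 of 31 list shares by more than 1 SD. Shares over 1.5 times lower were the cytosolic ribosome (2.20%), the respiratory chain (1.07%), mitochondrial ribosome (0.723%) and import (0.276%). Also over 1.5 times lower were redox (1.37%), histones with chaperones and HMG proteins (0.897%), Rab GTPases (0.395%), conjugating enzymes (0.174%) and blood markers (0.00286%). Shares over 1.5 times higher were kinesins (0.915%), the zona list (2.45%) and theca markers (0.0206%). The mean number of rows detected was 5439.7 at 5 RPKM in place of 1 RPKM. The median spread was 0.39 with a pseudocount of 0.1 and 0.17 with no filter on low values. Leaving out each library in turn, the first 10 rows held 14.1% to 16.1%, the first 100 34.6% to 37.0% and the first 1000 72.7% to 74.5%. The mean number of rows detected was 8616 to 9067.5, and the median spread 0.22 (without GV14c) to 0.33 (without GV14). Without GV14c the cytosolic ribosome list held 3.52%, the zona and oocyte-secreted list 1.33% and the list of histones, chaperones and HMG proteins 2.13%. Counts of rows by highest library after scaling to the median ratio, chosen after seeing the data, stand in the report beside the counts for lists, abundance bins and the widest rows. The alternative for mitochondrial-genome transcripts was not run because no row matched it. No paired analysis was possible because only 1 group is described. With 3 libraries, an SD is itself imprecise.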
